A study of Mus musculus with 12 samples.

Results

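The fasting response shared by both genotypes was measured in liver as the mean of 2 differences, fasted minus fed in control mice and fasted minus fed in knockout mice. All 12 libraries of the series entered it, 6 from fed and 6 from fasted animals, and every gene with enough reads was a member: 15862 of 55487 annotated genes. The animals were male mice aged 16 to 18 months, 3 in each of 4 groups, and all of them carried floxed Foxo3 alleles. Control animals carried no Cre. Animals labelled knockout also carried Cre under the albumin promoter, which is active in hepatocytes, so the deletion is aimed at hepatocytes and not at other liver cells. Each genotype was sampled fed and after an overnight fast. Whole frozen liver was used, in which fewer cells of a type and less RNA per cell cannot be told apart.

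In the fed state, insulin drives the liver to turn glucose into glycogen and fatty acids, largely through the transcription factors SREBP-1c and ChREBP. During a fast, insulin falls while glucagon, glucocorticoids and fatty acids released from fat tissue rise, and the liver burns fatty acids, exports ketone bodies and makes glucose. FoxO factors, CREB, the glucocorticoid receptor and PPAR alpha, a receptor that binds fatty acids, are the best known regulators of the genes switched on.

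Library totals lay between 17520058 and 22414976 counts. Levels are given as CPM, counts divided by the scaled library size, or as TPM, which also divides by gene length and is used where genes are compared with each other. Of 3 levels given for all fed or all fasted livers, the first is the lowest, the second the median and the third the highest library, while 3 levels given for a single group are those of its replicates. Changes are log2 differences, fasted over fed, with the standard error (SE), and a gene is said to have risen or fallen where the adjusted p of edgeR's quasi-likelihood test was at most 0.05. Fed control replicate 3 stood apart by immune and matrix genes, fed knockout replicate 1 by serum amyloid genes and fasted control replicate 3 by antibody genes. Without these 3 libraries 1066 genes passed the threshold, 897 of them among the 1438 of all libraries. Mouse numbers in the column names form a separate range in each group, so a difference of cohort or day cannot be told apart from feeding. Since the deleted exons are not named, a total count of the floxed gene cannot show whether they were lost. Foxo3 (chromosome 10, 42181841 to 42276755) had 45.5, 44.5 and 50.4 CPM in fed control, 59.4, 58.8 and 62.2 CPM in fed knockout, 44.3, 39.9 and 38.1 CPM in fasted control and 46.6, 53.6 and 53.4 CPM in fasted knockout livers. In each feeding state every library labelled knockout was above every control library. The total thus gives no check of the labels, and knockout stands here for the label alone. Between fed and fasted livers its change missed the threshold (-0.22, SE 0.066, adjusted p = 0.0584), which it passed under 5 alternatives.

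Of the 15862 genes tested, 1438 (9.07%) passed the threshold: 721 (4.55%) rose and 717 (4.52%) fell. The genes that fell changed by more, with a median log2 change of -0.61 against 0.50 for those that rose. More of them were at low levels, where the SE is larger: 54 against 17 below 1 TPM and 257 against 190 between 1 and 10 TPM. The part of level in the size of the changes was not tested. At least 2-fold changes were seen for 195 genes that fell and 108 that rose (303 genes, 1.91% of those tested), and at least 4-fold changes for 48 and 16. All 6 fasted libraries lay above all 6 fed libraries for 364 of the 721 genes that rose, and below them for 332 of the 717 that fell. Over all tested genes such separation was found for 2.59% in the first and 2.34% in the second direction. The median change over all tested genes was -0.0093. Scaling of the libraries places this centre near 0 by construction, so changes are relative to it. The value is no test of a shift common to all genes. In TPM, the genes that rose made up 5.37 to 6.91% of each fed library and 9.17 to 10.9% of each fasted one. Those that fell went from 5.7 to 7.05% down to 2.83 to 4.23%. Both sets were chosen by their change in these same libraries, so these shares describe them and are no test. Abundant transcripts were called more often: 19.5% of the genes between 100 and 1000 TPM passed, against 3.23% of those below 1 TPM, and the median SE was 0.1 in the first and 0.34 in the second class.

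Most members of fatty acid synthesis fell. Of 21 tested enzymes and regulators 16 fell, 1 rose and 4 did not pass, with a median change of -1.57. Fasn (chromosome 11, 120805846 to 120824547), the enzyme that builds palmitate, stood at 1242, 2548 and 1886 CPM in fed control and 1348, 2029.6 and 1231 CPM in fed knockout livers. After the fast it stood at 195, 229 and 152 CPM in control and 166, 207 and 135 CPM in knockout livers. Every fasted library was thus far below every fed library, a 9.44-fold drop (-3.24, SE 0.21, adjusted p = 8e-06). Acetyl-CoA carboxylase makes the malonyl-CoA that Fasn uses. Its cytosolic form Acaca had 153, 182 and 231 CPM in fed and 48.7, 63.6 and 72.9 CPM in fasted livers (-1.56, SE 0.11, adjusted p = 8e-06). The form at the mitochondrial surface, Acacb, whose product blocks fatty acid entry into mitochondria, had 159.8, 223 and 282 CPM fed and 39, 48.4 and 53.8 CPM fasted (-2.23, SE 0.15, adjusted p = 8e-06). Acly, which cleaves citrate to supply cytosolic acetyl-CoA, had 383, 488 and 736 CPM fed and 109, 125 and 146 CPM fasted (-2.02, SE 0.14, adjusted p = 8e-06). None of these 4 genes had a fed library within the range of the fasted ones.

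The deepest falls of the group were those of Pnpla3 and Thrsp. Pnpla3, a lipid droplet protein whose gene is driven by SREBP-1c, was at 3.28, 7.39 and 7.63 CPM in fed control and 3.14, 6.13 and 3.28 CPM in fed knockout livers. The fast left 0, 0.0566 and 0.38 CPM in control and 0.177, 0.225 and 0.0576 CPM in knockout livers (-4.94, SE 0.48, adjusted p = 0.000123). Thrsp, a regulator of lipogenesis, was at 654, 869.8 and 1297 CPM in fed and 32.1, 79 and 153 CPM in fasted livers (-3.54, SE 0.39, adjusted p = 0.000537). Further members, named after their values were seen, cover the chain from acetate to unsaturated fatty acids. The regulator Srebf1, which encodes SREBP-1, changed by -2.27, the elongase Elovl6 by -2.28, the acetate-activating Acss2 by -1.68 and the carboxylase activator Mid1ip1 by -1.76, all past the threshold. Scd1, the main liver desaturase, fell from a mean of 12121 to 4345 TPM (-1.56, SE 0.27, adjusted p = 0.00346), the largest loss in TPM of any gene past the threshold. Its fed range of 17359.8 to 33378 CPM met the fasted range of 3137 to 17607 CPM through fasted knockout replicate 1. The gene that rose, Nr1h3, encodes the sterol receptor LXR alpha, which activates this programme, and its change was small (0.27, SE 0.067, adjusted p = 0.0239). That call was lost without fed knockout replicate 3, fasted control replicate 1 or fasted knockout replicate 2 (each left out alone), and 2 members rose without fed control replicate 3 or fasted control replicate 3.

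**Figure D1:**
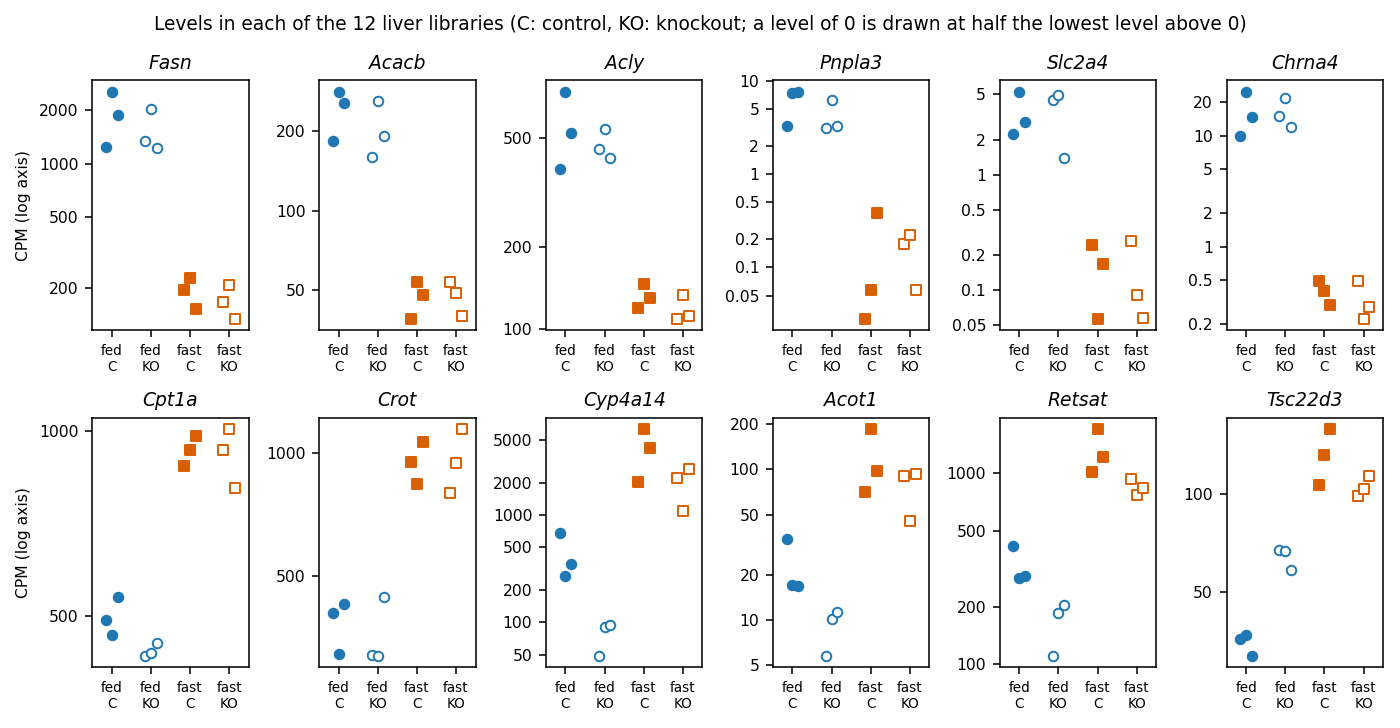
Level of 12 genes in each library on a log CPM axis, with 3 libraries per group (circles fed, squares fasted, filled control, open knockout). In all 12 panels the fasted libraries lie wholly below (upper row) or wholly above (lower row) the fed ones.

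Mlxipl, which encodes ChREBP, fell from 227, 292 and 334 to 139, 176 and 193 CPM (-0.73, SE 0.10, adjusted p = 0.001), and the mitochondrial citrate carrier Slc25a1 from 216, 248 and 291 to 144, 181 and 205 CPM (-0.47, SE 0.10, adjusted p = 0.0115). No fed library lay within the fasted range of either gene. They are the members of the group that both passed the threshold and held an E-box (CACGTG, a site that ChREBP, USF and clock factors can read) in the 250 bases before the start site. The windows are from RefSeq (GRCm38.p6), lower case with the E-box in capitals, on the plus strand at chr5:135089640-135089889 for Mlxipl and the minus strand at chr16:17928220-17928469 for Slc25a1.
Mlxipl: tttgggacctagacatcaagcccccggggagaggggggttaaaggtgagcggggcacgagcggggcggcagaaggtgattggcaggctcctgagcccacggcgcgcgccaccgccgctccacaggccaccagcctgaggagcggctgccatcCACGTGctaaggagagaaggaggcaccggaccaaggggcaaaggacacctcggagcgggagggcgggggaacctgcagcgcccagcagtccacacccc
Slc25a1: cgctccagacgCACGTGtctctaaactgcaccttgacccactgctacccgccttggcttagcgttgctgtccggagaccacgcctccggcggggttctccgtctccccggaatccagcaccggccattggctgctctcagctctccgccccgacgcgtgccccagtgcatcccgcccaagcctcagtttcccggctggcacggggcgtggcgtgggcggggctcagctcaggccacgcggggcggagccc
The E-box begins 98 bases before the Mlxipl start of this window and 239 before that of Slc25a1. Mlxipl also has another RefSeq window, in which no E-box was found. The E-box occurred in 7.94% of all 14288 such windows of tested genes, in 7.62% of windows of genes that fell and in 10.1% of windows of genes that rose, and it is its own reverse complement.

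NADPH for lipid synthesis comes from the pentose phosphate pathway, malic enzyme and cytosolic isocitrate dehydrogenase. Of 11 tested genes 6 fell and 0 rose (median -0.26). Pgd, the second NADPH-forming enzyme of the pathway, had 48, 52.8 and 91.6 CPM in fed and 26, 27.8 and 30.5 CPM in fasted livers (-1.06, SE 0.13, adjusted p = 0.00054), with no overlap. Idh1 changed by -0.52 (SE 0.09), malic enzyme Me1 by -1.13 (SE 0.22), the isomerase Rpia by -0.94 (SE 0.18) and transketolase Tkt by -0.47 (SE 0.10). G6pdx, the first enzyme of the pathway, did not pass (-0.26, adjusted p = 0.189).

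Of 18 genes of glycolysis, fructose use and glucose uptake 2 fell and 0 rose (median -0.17), a share of 11.1% near the 9.07% of all tested genes. Pklr, liver pyruvate kinase, had 260.4, 469.5 and 694 CPM fed and 87.8, 114 and 228 CPM fasted (-1.77, SE 0.29, adjusted p = 0.00431). Gapdh, whose many pseudogenes can take its reads, missed the threshold at -1.21 with an SE of 0.39 (adjusted p = 0.0914), and the glucose exporter Slc2a2 had a change of -0.29 (adjusted p = 0.128). At the entry of pyruvate into the citric acid cycle, subunits of pyruvate dehydrogenase fell while both subunits of the pyruvate carrier rose. Dlat changed by -0.78 (SE 0.10) and Pdhb by -0.48 (SE 0.10), against 0.41 (SE 0.094) for Mpc1 and 0.38 (SE 0.10) for Mpc2. The Mpc2 call was lost without fed knockout replicate 1, fed knockout replicate 2, fed knockout replicate 3, fasted control replicate 2, fasted knockout replicate 1 or fasted knockout replicate 3 (each left out alone). Of the 13 genes tested there, 2 rose and 2 fell.

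In glycogen metabolism 4 of 18 genes fell and 2 rose. Ppp1r3g, which brings protein phosphatase 1 to glycogen, went from 4.07, 11.9 and 17.9 CPM in fed to 0.633, 1.04 and 1.77 CPM in fasted livers, a 9.47-fold fall (-3.24, SE 0.41, adjusted p = 0.001). The branching enzyme Gbe1 changed by -0.88 (SE 0.12) and the phosphorylase Pygl by -0.88 (SE 0.12). Synthesis and breakdown enzymes are thus both among the genes that fell. Lysosomal acid glucosidase Gaa rose by 0.38 (SE 0.086, adjusted p = 0.0152). The rise of the kinase subunit Phkg2 (0.25, adjusted p = 0.0287) was lost without fed control replicate 3, fed knockout replicate 2, fed knockout replicate 3, fasted control replicate 2, fasted control replicate 3, fasted knockout replicate 1 or fasted knockout replicate 2 (each left out alone), and 1 or 2 genes rose in these fits.

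In mitochondrial fatty acid oxidation 17 of 20 genes rose, 0 fell, and the median change was 0.74. Cpt1a (chromosome 19, 3322334 to 3385733) commits long-chain fatty acids to the mitochondrion. Its levels were 491, 464 and 537 CPM in fed control, 429.5, 435 and 451 CPM in fed knockout, 877, 932 and 982 CPM in fasted control and 932, 1007 and 807 CPM in fasted knockout livers. All fasted libraries were above all fed ones, with little spread within groups (0.98, SE 0.086, adjusted p = 4.9e-05). The other steps of entry rose alongside: the carnitine transporter Slc22a5 changed by 1.39 (SE 0.14), the carnitine-acylcarnitine carrier Slc25a20 by 1.07 (SE 0.12) and Cpt2 by 0.89 (SE 0.09). In the oxidation cycle itself, the medium-chain dehydrogenase Acadm had 270.0, 312 and 387 CPM in fed and 523, 577 and 743 CPM in fasted livers (0.91, SE 0.10, adjusted p = 0.000143). The trifunctional protein subunit Hadhb had 108, 128 and 144 CPM fed and 209, 224 and 303 CPM fasted (0.90, SE 0.081, adjusted p = 5.34e-05). All 17 calls stood when each library was left out in turn and without the 3 libraries that stand apart. The members that did not pass were the thiolase Acaa2 (0.26), the flavoprotein subunit Etfa (0.20) and the hydratase Echs1 (0.064).

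Of 8 genes of ketone body synthesis and export, 4 rose and 0 fell. Among them, Acat1, which supplies acetoacetyl-CoA, had 295, 356 and 427 CPM in fed and 487, 529 and 617 CPM in fasted livers (0.61, SE 0.089, adjusted p = 0.00121). The dehydrogenase Bdh1, which forms 3-hydroxybutyrate, had 146, 208 and 255 CPM fed and 275, 326 and 358 CPM fasted (0.63, SE 0.089, adjusted p = 0.001). The hormone gene Fgf21 had 0.261, 0.922 and 3.63 CPM in fed and 1.81, 3.16 and 5.44 CPM in fasted livers and missed the threshold (1.6, SE 0.46, adjusted p = 0.0521), though it passed under 7 alternatives. The monocarboxylate exporters Slc16a1 (0.20, adjusted p = 0.495) and Slc16a6 (0.0082, adjusted p = 0.989) did not pass.

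**Figure D2:**
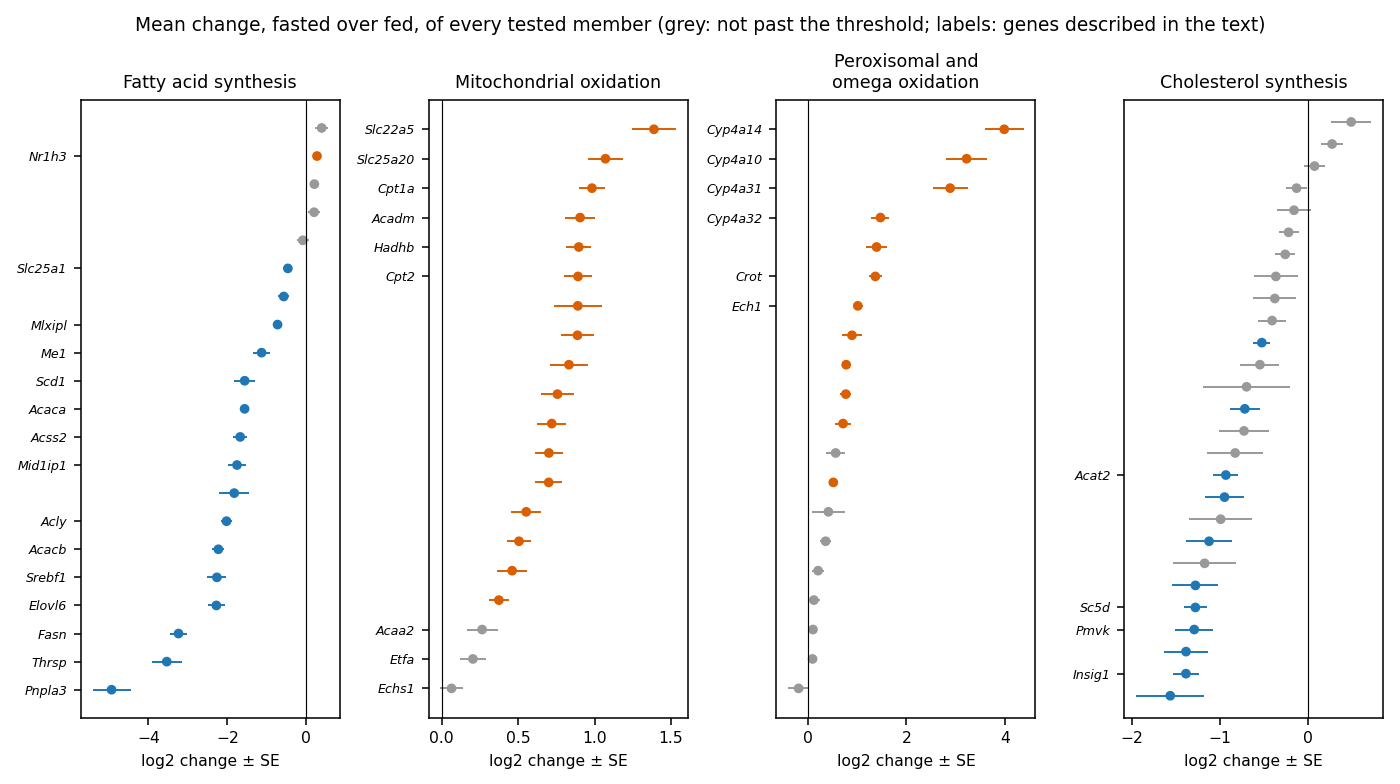
Mean log2 change, fasted over fed (horizontal axis, bars are the SE), of every tested member of 4 gene lists, coloured where it passed the threshold and labelled where its values are in the text. 16 blue points stand left of 0 in fatty acid synthesis and 17 orange points right of 0 in mitochondrial oxidation.

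Peroxisomal and omega oxidation, the routes for fatty acids that mitochondria handle poorly, held the largest increase past the threshold. Of 20 genes 12 rose and 0 fell (median 0.75). Cyp4a14 (chromosome 4, 115486200 to 115496142), an omega-hydroxylase and classic PPAR alpha target, stood at 683, 272 and 350.3 CPM in fed control and 48.5, 90.2 and 93.4 CPM in fed knockout livers. After the fast it reached 2030.5, 6339 and 4254 CPM in control and 2199.8, 1092 and 2665 CPM in knockout livers, 15.8-fold above fed (3.98, SE 0.39, adjusted p = 0.000263). Fed knockout libraries were the lowest of all, and the change was 4.68 in knockout and 3.27 in control livers, a difference that did not pass (adjusted p = 0.721). Its neighbours changed by 3.22 (Cyp4a10, SE 0.42), 2.88 (Cyp4a31, SE 0.35) and 1.47 (Cyp4a32, SE 0.18). These paralogs are close in sequence, and how reads that match several of them were counted is not given, so their separate values are uncertain. Genes without such copies rose as well. Crot, which exports shortened acyl chains from peroxisomes, had 317, 363 and 442 CPM fed and 798, 950.5 and 1149 CPM fasted (1.37, SE 0.13, adjusted p = 8.46e-05), and the dienoyl-CoA isomerase Ech1 155, 213 and 281 CPM fed and 398, 403 and 517 CPM fasted (1.02, SE 0.10, adjusted p = 9.7e-05).

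Among 19 further genes of PPAR alpha, its partners and targets, 6 rose and 0 fell (median 0.35). They include Slc27a2, which takes up and activates very-long-chain fatty acids (0.83, SE 0.11), the partner factor Creb3l3 (0.72, SE 0.10) and Angptl4, a secreted inhibitor of lipoprotein lipase, at 32, 52.9 and 77.3 CPM in fed and 90.1, 147 and 182 CPM in fasted livers (1.44, SE 0.23, adjusted p = 0.00337). Slc27a1, another uptake protein, had every fasted library above every fed one but with a wide spread, at 16.6, 43.7 and 53.5 CPM in fasted control and 24, 13.3 and 9.67 CPM in fasted knockout livers, against 5.22 to 8.45 CPM over the fed ones. Its adjusted p was 0.00513 and was 0.0622 without the 3 libraries that stand apart. Several known members did not pass: Ppara itself (0.27, adjusted p = 0.0767), Pdk4 (-0.55, adjusted p = 0.401), Cd36 (0.37, adjusted p = 0.294) and Fabp1 (-0.026, adjusted p = 0.926). The count of this list was 9 without fed control replicate 3 and 4 without the 3 libraries.

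Acyl-CoA thioesterases and CoA hydrolases, which set the pool of free CoA, split in direction: 5 of 12 rose and 3 fell. Acot1, at 5.75, 14.1 and 34.7 CPM in fed and 45.8, 91.8 and 186 CPM in fasted livers, rose 6.6-fold (2.72, SE 0.34, adjusted p = 0.00135). Its tandem copies Acot2 and Acot3 rose by 1.76 and 2.1, and reads may be shared among them. Nudt7, a peroxisomal CoA hydrolase, fell from 191, 492 and 547 to 107, 147 and 185 CPM (-1.59, SE 0.21, adjusted p = 0.001). Acot11 fell by 1.27 (SE 0.22). The fall of Acot7 (-0.30, adjusted p = 0.0497) was lost without 10 of the 12 libraries in turn.

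In lipid droplets and lipolysis 5 of 26 genes rose and 1 fell. Plin5, a droplet coat protein that ties droplets to mitochondria, had 16.1, 18.8 and 23.7 CPM in fed and 36, 42.1 and 57 CPM in fasted livers (1.16, SE 0.11, adjusted p = 6.7e-05). The lipases Pnpla2 (0.63, SE 0.079) and Mgll (1.0, SE 0.14) also rose. Gpam, which starts triglyceride assembly, moved the other way, from 461, 632 and 915 to 236, 267 and 289 CPM (-1.26, SE 0.12, adjusted p = 9.47e-05).

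Of 15 genes of gluconeogenesis 6 rose and 0 fell (median 0.27). Glycerol kinase Gk, which brings glycerol from lipolysis into the pathway, had 93, 109 and 118 CPM in fed and 172, 203 and 240.1 CPM in fasted livers (0.94, SE 0.10, adjusted p = 0.000113). Pck1 (chromosome 2, 173153048 to 173159273), the cytosolic enzyme that forms phosphoenolpyruvate, had 1421, 2068 and 2821 CPM fed and 2574, 4093 and 5114 CPM fasted, and its ranges met (0.93, SE 0.16, adjusted p = 0.00354). Fbp1 changed by 0.48 (SE 0.084) and pyruvate carboxylase Pcx by 0.44 (SE 0.086). The final enzyme G6pc did not pass (-0.62, SE 0.30, adjusted p = 0.256), nor did the coactivator Ppargc1a (0.087, adjusted p = 0.666). The calls of Gpd1 and of the glycerol channel Aqp9 were each lost when any of 8 libraries was left out alone, and 4 to 6 members rose over these fits.

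Of 31 genes of amino acid breakdown 3 rose and 1 fell, and of 14 genes of the urea cycle and its carriers 1 rose. These shares, 12.9% and 7.14%, are near the 9.07% of all tested genes, so the values below describe single genes. Mat1a, which makes S-adenosylmethionine, had 2499.9, 2939 and 3099 CPM in fed and 5190.3, 5656 and 7503 CPM in fasted livers (1.06, SE 0.10, adjusted p = 9.47e-05). It gained 2228 TPM. Ornithine aminotransferase Oat changed by 1.0 (SE 0.17) and the mitochondrial aspartate-glutamate carrier Slc25a13 by 0.59 (SE 0.10). Haao of tryptophan breakdown fell (-0.45, SE 0.11). The transsulfuration enzyme Cth had a change of 1.19 in control and 0.18 in knockout livers, and its mean call (0.69, adjusted p = 0.0287) was lost when any of 7 libraries was left out alone. Without fasted control replicate 1, 5 members of amino acid breakdown rose, and without that library or fed control replicate 2, 2 of the urea cycle list.

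In cholesterol synthesis and sterol sensing 11 of 27 genes fell and 0 rose (median -0.71). Insig1, which holds the SREBP escort protein in the endoplasmic reticulum and is itself an SREBP target, went from 408, 516 and 721 to 160.0, 186 and 285 CPM (-1.38, SE 0.15, adjusted p = 0.000169). The late enzyme Sc5d went from 688, 767 and 887 to 245, 311 and 415 CPM (-1.28, SE 0.13, adjusted p = 0.000125), and both genes separated fully. Acat2 changed by -0.93 (SE 0.14) and Pmvk by -1.29 (SE 0.22). The count was 7 without fasted knockout replicate 3, 18 without fasted knockout replicate 2 and 7 without the 3 libraries that stand apart. Of the genes of bile acid synthesis and transport, 4 of 17 rose and 1 fell. Abcb4, which exports phospholipid into bile, had 143, 214 and 276 CPM fed and 366, 408 and 512 CPM fasted (1.0, SE 0.14, adjusted p = 0.000911). The sterol 12-alpha-hydroxylase Cyp8b1 changed by 1.63 (SE 0.24) and the bile salt export pump Abcb11 by -0.70 (SE 0.13). Without fed knockout replicate 2 or fasted knockout replicate 3, 2 members rose, and without fed control replicate 3, 3 fell. Cyp7a1, the first enzyme of the pathway, did not pass (0.52, adjusted p = 0.551).

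**Figure D3:**
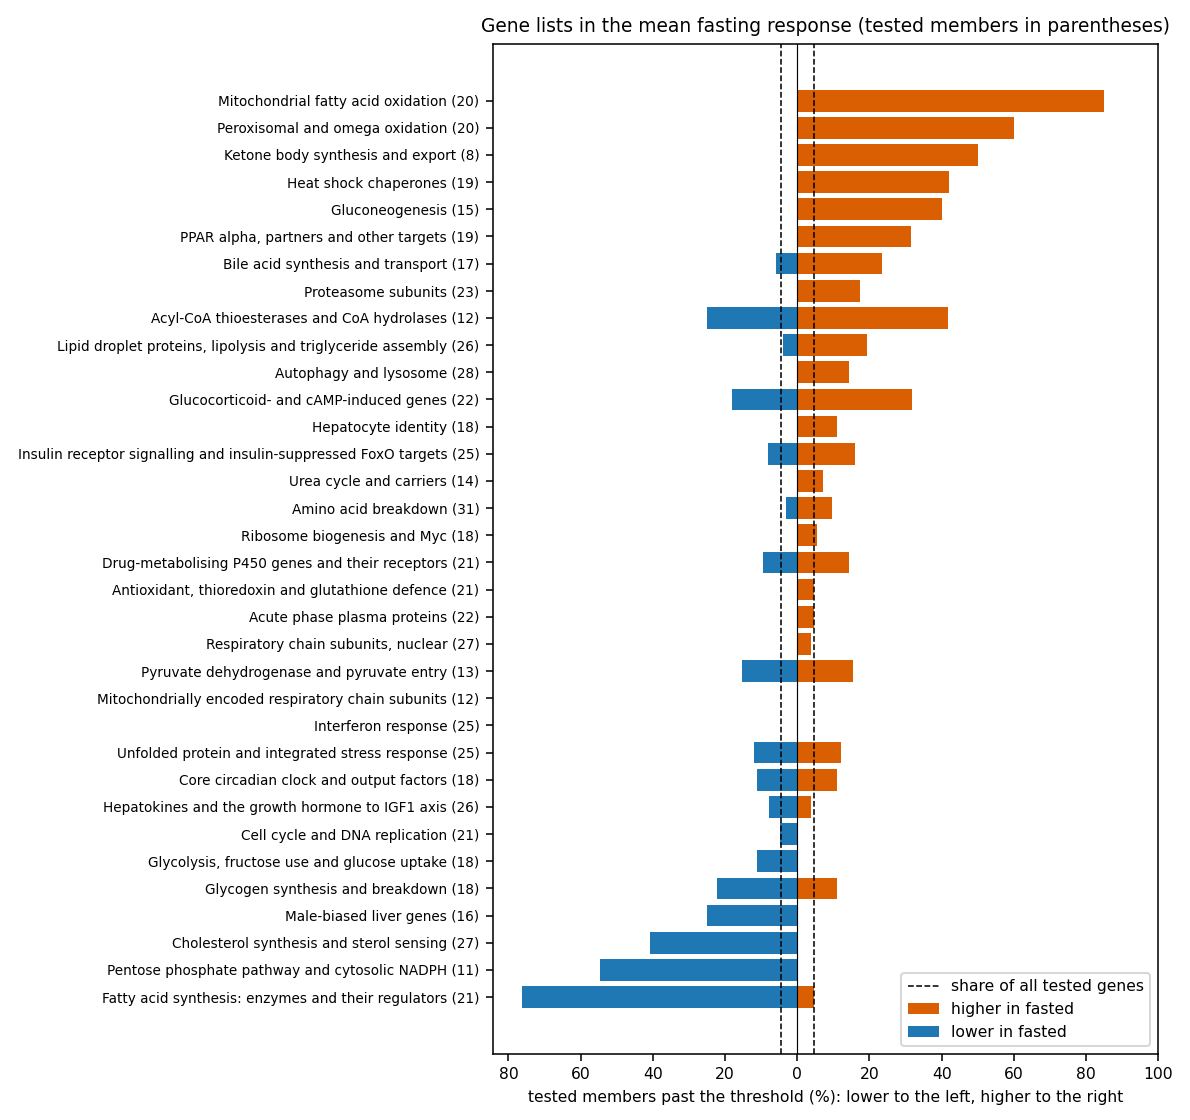
Share of tested members past the threshold in 34 gene lists, lower to the left and higher to the right, with dashed lines at the shares of all tested genes (4.52 and 4.55%). Fatty acid oxidation lists are at the top and fatty acid synthesis, NADPH and cholesterol lists at the bottom.

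Of 25 genes of insulin receptor signalling and of FoxO targets held down by insulin, 4 rose and 2 fell, with a median change of 0. Trib3 (0.60, SE 0.13) and the factor Klf15 (0.53, SE 0.10) rose beside Pck1. Gadd45a, a stress gene known as a FoxO target, fell from 7.91, 11.8 and 15.1 to 2.67, 3.52 and 6.9 CPM (-1.52, SE 0.17, adjusted p = 0.000197), without overlap. Sesn3 fell too (-0.39, adjusted p = 0.0322), a call lost when any of 7 libraries was left out alone. Foxo1 had 42.3, 48.7 and 51.7 CPM in fed and 49.1, 60.2 and 71.5 CPM in fasted livers (0.34, SE 0.10, adjusted p = 0.0432), a call lost when any of 9 libraries was left out alone, and with limma-voom (adjusted p = 0.0526). With the replicate block or without the 3 libraries that stand apart, 3 members of this list rose and 1 fell. The same counts were found on log2(TPM + 1) and log2(TPM + 0.1), and 2 rose on unfiltered log2(TPM + 1). Foxo4 did not pass (-0.10, adjusted p = 0.615), and neither did Igfbp1 (0.38, adjusted p = 0.654) or Irs2 (-0.022, adjusted p = 0.928).

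Genes known to be induced by glucocorticoids or cAMP split: 7 of 22 rose and 4 fell. Tsc22d3, also called GILZ, a direct target of the glucocorticoid receptor, was among the genes with the smallest p. It stood at 35.7, 36.7 and 31.7 CPM in fed control and 67.5, 67 and 58.6 CPM in fed knockout livers, and after the fast at 107, 132 and 159 CPM in control and 99.2, 104 and 114 CPM in knockout livers (1.33, SE 0.10, adjusted p = 8e-06). Fed knockout libraries were above fed control libraries. Among fasted libraries the ranges of the genotypes met, with the highest levels in control. The change was 1.94 in control and 0.71 in knockout livers. This difference did not pass (adjusted p = 0.144) except without fasted control replicate 1 (0.0239), without a filter on low counts (0.00582) and in DESeq2 (3.78e-05). Cebpb, a factor of the fasting liver, rose by 0.55 (SE 0.11). The members that fell were the phosphatase Dusp1, the kinase Sik1 (-0.79), the phosphodiesterase Pde4b (-1.25) and the receptor Nr3c1 itself (-0.32). Sik1 changed by -0.075 in control and -1.51 in knockout livers, a difference that did not pass. Without the 3 libraries that stand apart, 4 rose and 3 fell. Over 18 clock genes 2 rose and 2 fell (22.2% past the threshold, against 9.07% of all tested genes). Bhlhe40, a repressor in the clock loop, had 211, 259.9 and 302 CPM fed and 107, 134 and 179 CPM fasted (-0.90, SE 0.081, adjusted p = 5.11e-05). Without fed knockout replicate 3, 4 clock genes rose. Arntl (0.78, adjusted p = 0.0594), Nr1d1 (0.28, adjusted p = 0.266) and Dbp (-0.083, adjusted p = 0.683) did not pass.

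Dusp1 and Per1 are the members of these lists that passed and carried a motif named for their list before the start site. Dusp1 fell from 33.4, 60.3 and 64.6 to 14.9, 22.4 and 31.7 CPM (-1.3, SE 0.20, adjusted p = 0.00242), and the clock gene Per1 rose from 32.7, 37.8 and 45.4 to 52, 64 and 72.8 CPM (0.70, SE 0.10, adjusted p = 0.000723). Their RefSeq windows (GRCm38.p6, 250 bases before the start) lie on the minus strand at chr17:26508473-26508722 and on the plus strand at chr11:69098699-69098948. Capitals mark the cAMP response element TGACGTCA in Dusp1, 143 bases before the start, and the E-box in Per1, 166 bases before it. The D-box (TTATGNAA), also named for the clock list, begins 24 bases before the Per1 start and is left in lower case. It was in 2.11% of all such windows, in 1.28% of those of genes that rose and in 2.08% of those of genes that fell.
Dusp1: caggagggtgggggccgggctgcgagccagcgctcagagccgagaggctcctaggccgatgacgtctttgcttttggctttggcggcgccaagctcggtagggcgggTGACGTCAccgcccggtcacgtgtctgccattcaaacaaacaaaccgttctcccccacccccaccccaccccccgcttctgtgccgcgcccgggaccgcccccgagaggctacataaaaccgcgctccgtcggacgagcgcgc
Per1: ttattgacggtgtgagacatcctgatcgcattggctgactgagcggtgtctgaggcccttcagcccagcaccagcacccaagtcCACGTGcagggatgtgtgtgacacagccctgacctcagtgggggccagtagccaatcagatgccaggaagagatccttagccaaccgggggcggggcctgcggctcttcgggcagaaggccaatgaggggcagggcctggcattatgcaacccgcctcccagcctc
The element TGACGTCA, its own reverse complement, was in 2.32% of all such windows, in 2.42% of those of genes that rose and in 2.22% of those of genes that fell. The sterol regulatory element TCACCCCAC, searched on both strands like all 12 motifs, was in 12 of 722 windows of genes that fell (1.66%), against 0.553% of all windows and 0.57% of those of genes that rose. None of the 24 windows of the fatty acid synthesis list and 1 of 25 windows of the cholesterol list held this element. The CCAAT box was in 42.2% of windows of genes that fell, 35.9% of those of genes that rose and 35.0% of all. The core site of FoxO and FoxA factors, GTAAACA, was in 3.74% of windows of genes that fell, 2.56% of those of genes that rose and 2.59% of all. The heat shock element was in 0.57% of windows of genes that rose and 0.385% of all. The direct repeat DR1 that PPAR alpha reads, with 1 base free in each part, was in 0.285% of windows of genes that rose and 0.287% of all. Sites of these factors may lie outside the windows, and no test was made of the shares.

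Hepatokines and the growth hormone axis gave 1 gene higher and 2 lower of 26, a share of 11.5% near the 9.07% of all tested genes. Besides Angptl4 these were Angptl8, a secreted protein induced by insulin, at 27.5, 48.7 and 59.6 CPM in fed and 7.5, 13.4 and 25.7 CPM in fasted livers (-1.66, SE 0.32, adjusted p = 0.0109), and Cish, a feedback inhibitor induced by STAT5 (-1.65, SE 0.32, adjusted p = 0.0104). Cish changed by -2.59 in control and -0.70 in knockout livers, and that difference did not pass (adjusted p = 0.617). Igf1 (-0.033, adjusted p = 0.898) and Ghr (-0.32, adjusted p = 0.0596) did not pass. Without fed control replicate 3, fed knockout replicate 1 or fed knockout replicate 2, each left out alone, 2 rose, and without the 3 libraries that stand apart 3 rose and 3 fell.

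Of 19 heat shock chaperones 8 rose and 0 fell (median 0.32). Hspa8, the abundant cytosolic chaperone, had 572, 663 and 754 CPM in fed and 808, 1069 and 1473 CPM in fasted livers (0.74, SE 0.14, adjusted p = 0.00509). Hspa1b, an inducible form with a near-identical copy in Hspa1a, changed by 1.54 (SE 0.30) and Hsph1 by 1.34 (SE 0.26). The count was 5 without fed knockout replicate 2, fasted control replicate 2 or fasted knockout replicate 3, and 2 without the 3 libraries that stand apart. The unfolded protein and integrated stress responses split, with 3 of 25 higher and 3 lower. Atf5, a factor of the integrated stress response, had 174, 205 and 225 CPM fed and 328, 359 and 462 CPM fasted (0.90, SE 0.10, adjusted p = 0.0002). The disulfide isomerase Pdia6 moved down (-0.80, SE 0.11) and Herpud1, of protein degradation at the endoplasmic reticulum, up (0.77, SE 0.15). Over single libraries, 1 gene fell without fed control replicate 2, fed knockout replicate 1 or fed knockout replicate 3, and 5 without fed control replicate 3.

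In autophagy and lysosome genes 4 of 28 rose and 0 fell (14.3% past the threshold, against 9.07% of all tested genes). Those that rose include the autophagosome proteins Map1lc3a (0.52, SE 0.10) and Map1lc3b (0.36, SE 0.082). The mitophagy receptor Bnip3 changed by 0.45 (SE 0.10), and the lysosomal master factor Tfeb did not pass (0.086, adjusted p = 0.737). Of 23 proteasome subunits 4 rose (17.4%), by 0.43 at most (Psma7), and 1 did so without the 3 libraries that stand apart. Leaving out any single library but fed control replicate 1 or fasted control replicate 1 left 1 or 2 of them. Of 27 nuclear respiratory chain subunits 1 rose and 25 had a positive sign (median 0.13). That call was lost without fed knockout replicate 1, fed knockout replicate 3, fasted control replicate 2 or fasted knockout replicate 1 (each left out alone) and without the 3 libraries that stand apart. Of 12 mitochondrially encoded ones 0 passed in edgeR or DESeq2 and 0 had an unadjusted p under 0.05 in edgeR. Antioxidant defence had 1 of 21 genes higher, Gpx1 (0.45, adjusted p = 0.0244), and ribosome biogenesis 1 of 18, Polr1a (0.30, adjusted p = 0.0361), calls lost when any of 5 and any of 9 libraries was left out alone. The shares of nuclear respiratory chain, antioxidant and ribosome biogenesis genes that rose, 3.7 to 5.56%, are near the 4.55% of all tested genes.

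Among 21 drug-metabolising P450 genes and their receptors 3 rose and 2 fell. Nr1i3, the receptor CAR, had 138, 198 and 341 CPM in fed and 411, 523 and 795 CPM in fasted livers (1.4, SE 0.20, adjusted p = 0.00116). Its usual target Cyp2b10 did not pass (-0.51, SE 0.60, adjusted p = 0.659). Cyp2e1, the most abundant P450 here, gained 4093 TPM, the largest gain of any gene past the threshold, but its call (0.65, adjusted p = 0.0392) was lost when any of 9 libraries was left out alone. Of 16 male-biased liver genes 4 fell and 0 rose (median -0.68), with medians of 0.10 in control and -1.38 in knockout livers. No difference between genotypes passed for any of these genes in edgeR. Hsd3b5, a male-specific steroid enzyme, ranged over 0.136 to 102 CPM in fed livers, the lowest being fed control replicate 3, and over 0.133 to 3.22 CPM in fasted ones, with a fitted change of -5.78 (SE 1.02). Without fed control replicate 3, 6 of the male-biased genes fell and the median of the list was -0.88.

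Lists of inflammation and proliferation had 0% (interferon), 4.55% (acute phase) and 4.76% (cell cycle) of genes past the threshold, against 9.07% of all tested genes. In lists this short, the counts below describe single genes. Of 25 interferon response genes 0 passed in edgeR, and 2 had an unadjusted p under 0.05. DESeq2 called 2 of them, and edgeR called 1 without fed control replicate 1, fed control replicate 3 or fasted knockout replicate 1. Of 22 acute phase genes Lbp alone rose (0.88, SE 0.15, adjusted p = 0.00396), and 0 did so without the 3 libraries that stand apart. Of 21 cell cycle genes 20 had a negative sign (median -0.70), 6 had an unadjusted p under 0.05 and Rrm2 alone passed (-1.24, adjusted p = 0.0476). The call of Rrm2 was lost when any of 10 libraries was left out alone, and 4 genes fell without fasted control replicate 3.

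Markers of the liver's cell types were read to check the tissue. Of 18 hepatocyte genes 2 rose and 0 fell, a share of 11.1% near the 9.07% of all tested genes. Those that rose were Pck1 and Cyp2e1, both also metabolic, and albumin (Alb) had a change of -0.17 (adjusted p = 0.657). The summed level of the 18 genes was 132000 to 170000 TPM in fed and 124000 to 173000 TPM in fasted libraries. Of 19 Kupffer cell and macrophage markers, 9 T and NK cell markers, 17 stellate cell and matrix markers, 12 endothelial markers, 5 neutrophil markers and 6 red blood cell markers, 0 passed in edgeR. Unadjusted p-values under 0.05 were found for 1, 0, 3, 1, 1 and 2 of them, and DESeq2 called 1, 0, 1, 0, 0 and 2. Negative changes were found for 17 of 19, 5 of 9, 16 of 17, 12 of 12, 1 of 5 and 3 of 6 of them. With a single library left out, at most 1 macrophage, 1 matrix and 1 red blood cell marker passed. Summed macrophage markers were at 802 to 1990 TPM in fed and 723 to 1740 TPM in fasted libraries, and matrix markers at 105 to 375 and 76 to 172 TPM, both with fed control replicate 3 highest. Summed B and plasma cell markers ran from 239 to 619 TPM in fed and from 65.7 to 4010 TPM in fasted libraries, the highest being fasted control replicate 3. The antibody gene Ighm fell (-1.57, SE 0.28, adjusted p = 0.00709), from 61.6, 79.2 and 199 to 17.1, 34.8 and 50.9 CPM, and missed the threshold without the 3 libraries that stand apart (adjusted p = 0.0553). Of 9 cholangiocyte markers 5 were tested, and Sox9 fell (-0.68, adjusted p = 0.0432), a call lost when any of 8 libraries was left out alone. Adipocyte markers could mark fat tissue taken with the liver: Lep was at 0 counts in all 12 libraries, while Cfd (-2.22, adjusted p = 0.0382) and Car3 (-0.82, adjusted p = 0.048) fell, calls lost when any of 8 and any of 9 libraries was left out alone. Hepatocytes of male mice also express Car3, which holds most of that list's summed TPM. The part of these markers in the results above was not tested. Of 12 markers of pancreas and muscle 2 were tested, 4 were at 0 counts throughout, and the elastase gene Cela1 fell (-1.01, SE 0.18).

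**Figure D4:**
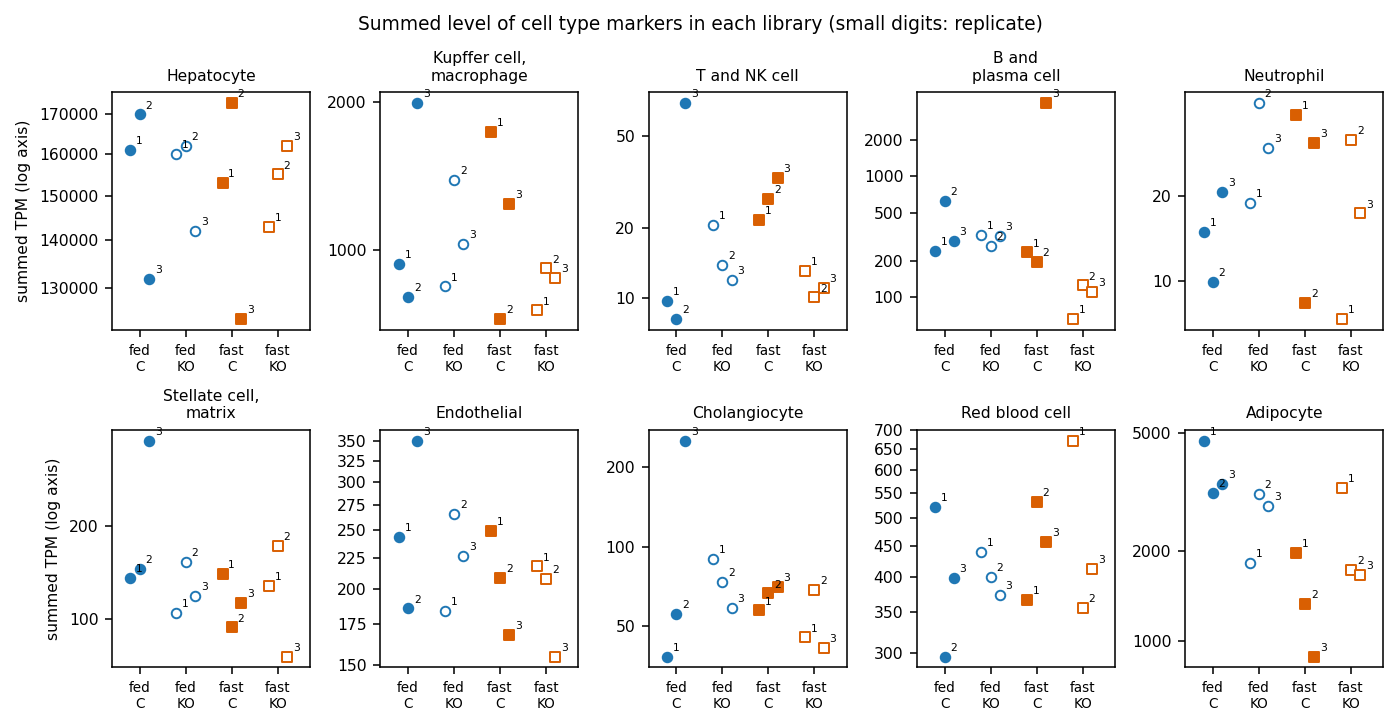
Summed TPM of 10 marker lists in each library on log axes (circles fed, squares fasted, filled control, open knockout, digits give the replicate). Fed control replicate 3 is highest for macrophage, T and NK cell, matrix, endothelial and cholangiocyte markers, and fasted control replicate 3 for B and plasma cell markers.

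These lists hold 728 of the 15862 tested genes, 172 of them past the threshold. Most genes of the response, 1266 of the 1438, are thus on none of them. Pnpla5, a lipase-like relative of Pnpla3, had 6 to 50 counts in each fed library and 0 in every fasted library. Against a floor of 3 counts over the 6 fasted libraries it was at least 47.8-fold lower, and its call was lost without the 3 libraries that stand apart (adjusted p = 0.0841). Chrna4 (chromosome 2, 181018380 to 181043546), the alpha 4 subunit of the nicotinic acetylcholine receptor, stood at 9.93, 25 and 14.8 CPM in fed control and 15.2, 22.1 and 11.9 CPM in fed knockout livers. It stood at 0.494, 0.396 and 0.295 CPM in fasted control and 0.486, 0.225 and 0.288 CPM in fasted knockout livers, 44.7-fold lower (-5.48, SE 0.31, adjusted p = 8e-06). Slc2a4, the insulin-responsive glucose transporter of muscle and fat, was low in fed livers (1.4, 3.65 and 5.28 CPM) and lower in fasted ones (0.0566, 0.129 and 0.265 CPM, -4.48, SE 0.46, adjusted p = 0.000125). Cyp2c70, which makes the muricholic bile acids of mice, had 259, 477 and 799 CPM fed and 61.8, 77.9 and 164 CPM fasted (-2.43, SE 0.21, adjusted p = 9.86e-05). The fatty acid binding protein Fabp5 changed by -2.99 (SE 0.57) and the glycine receptor subunit Glra3 by -3.08 (SE 0.61). The call of Fabp5 was lost without the 3 libraries that stand apart (adjusted p = 0.081). Svil, an actin-binding protein, fell less but with little spread, from 50.3, 54.3 and 65.1 to 21.6, 26.4 and 28.9 CPM (-1.08, SE 0.073, adjusted p = 8e-06).

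On the rising side, Retsat, which saturates retinol, had 419, 281 and 289 CPM in fed control and 110.3, 185 and 205 CPM in fed knockout livers, and after the fast 1012, 1710.1 and 1227 CPM in control and 934, 768 and 835 CPM in knockout livers (2.17, SE 0.18, adjusted p = 4.9e-05). A pair of little-studied carriers on chromosome 7, Slc6a16 and Slc6a21, rose from low levels, by 2.46 (SE 0.32) and 3.4 (SE 0.51). Slc6a21 did not exceed 0.333 CPM in a fed library and reached 0.359 to 1.83 CPM in fasted ones. The pseudogene Tdg-ps2 (3.31, SE 0.37) was at 0.209 to 0.431 CPM in fed livers, at 2.82, 3.05 and 0.633 CPM in fasted control and at 5.93, 4.72 and 5.99 CPM in fasted knockout livers. It lies on chromosome 10 at 42054113 to 42055306, close to Foxo3, and can share reads with its parent gene. Galectin 4 (Lgals4) and the zinc finger factor Sall1 were among the genes with the smallest p. Lgals4 had 5.96, 8.37 and 10.1 CPM fed and 17.9, 22.8 and 44.6 CPM fasted (1.7, SE 0.13, adjusted p = 1.27e-05), and Sall1 19.6, 21.4 and 24.5 CPM fed and 38.6, 44.2 and 57.6 CPM fasted (1.11, SE 0.10, adjusted p = 4.9e-05). In TPM, the gains were led by Cyp2e1, Cyp4a14, Mat1a and Cyp4a10, and the losses by Scd1, Car3, Thrsp, Adh1 and Gm42413. Alcohol dehydrogenase Adh1 fell from 2274 to 1559.5 TPM (-0.53, SE 0.092). Gm42413 is annotated as antisense, and since the strand setting of the counting is not given, its reads cannot be told apart from those of the gene opposite.

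Most genes of the response had the same sign in both genotypes. Of the 721 that rose, 717 had a positive change in both genotypes, and of the 717 that fell, 708 had a negative change in both. The choice by the mean favours such genes, so this describes them and is no test. Tested alone, the control livers gave 657 genes past the threshold (4.14%), 325 higher (2.05%) and 332 lower (2.09%). The knockout livers gave 393 (2.48%), 215 higher (1.36%) and 178 lower (1.12%). These 2 counts rest on 3 against 3 libraries each and moved with single ones, from 272 (without fasted control replicate 2) to 648 in control and from 88 (without fed knockout replicate 1) to 573 (without fed control replicate 3) in knockout livers. The test of the difference between genotypes passed for 1 gene (0.0063%), while DESeq2 called 60. An unadjusted p under 0.05 was found for 1141 of the 15862 genes, a count that includes those that chance alone gives at that cutoff. Some named means came largely from a single genotype. Hspa1b changed by 2.42 in control and 0.67 in knockout livers, Klf15 by 0.84 and 0.22, Car3 by -1.4 and -0.24 and Acot3 by 1.05 and 3.14, differences that did not pass (adjusted p = 0.617, 0.608, 0.636 and 0.626). For genes that rose, the median change was 0.53 in control and 0.45 in knockout livers, and for genes that fell -0.63 and -0.58.

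That gene was Rpl29 (chromosome 9, 106429454 to 106431568), which encodes a protein of the large ribosomal subunit. It stood at 87.7, 93.6 and 79 CPM in fed control, 98.6, 86.2 and 76.3 CPM in fed knockout and 84.9, 76.5 and 48.2 CPM in fasted knockout livers, but at 4.1, 6.0 and 3.29 CPM in fasted control livers. Its mean fall (-2.3) is thus made of -4.29 in control and -0.32 in knockout livers (difference 3.98, SE 0.32, adjusted p = 0.000643), and the fall was not alike in the 2 genotypes. The difference passed without any single library and without the 3 libraries that stand apart was as large, 3.96, with fewer libraries fitted (adjusted p = 0.0516). Acpp, an acid phosphatase gene on the same chromosome (104288251 to 104337748), followed the same layout, with 0.148, 0.113 and 0.295 CPM in fasted control livers and 8.85 to 24.1 CPM in fed ones, but did not pass for the difference (adjusted p = 0.148) except without fasted knockout replicate 3 (0.00375) and in DESeq2 (1.57e-09). The processed pseudogenes Gm6344 and Gm10709 fell in control livers (-4.09 and -2.19) and had changes of 0.018 and 0.018 in knockout livers (adjusted p of the difference 0.144 and 0.2). DESeq2 called both differences (2.53e-09 and 0.00153), and edgeR that of Gm6344 without fasted control replicate 2 (0.0494) or fasted knockout replicate 3 (0.046). On log2(TPM + 0.1), limma called that of Gm10709 (0.0265). All 3 fasted control libraries were below the other 9 for each of Rpl29, Acpp, Gm6344 and Gm10709, and the origin of these animals, whose mouse numbers form a range of their own, cannot be told apart from a response to the fast. Reads of ribosomal protein genes and their many pseudogenes can be split between copies, which makes the counts of Rpl29 uncertain in level.

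**Figure D5:**
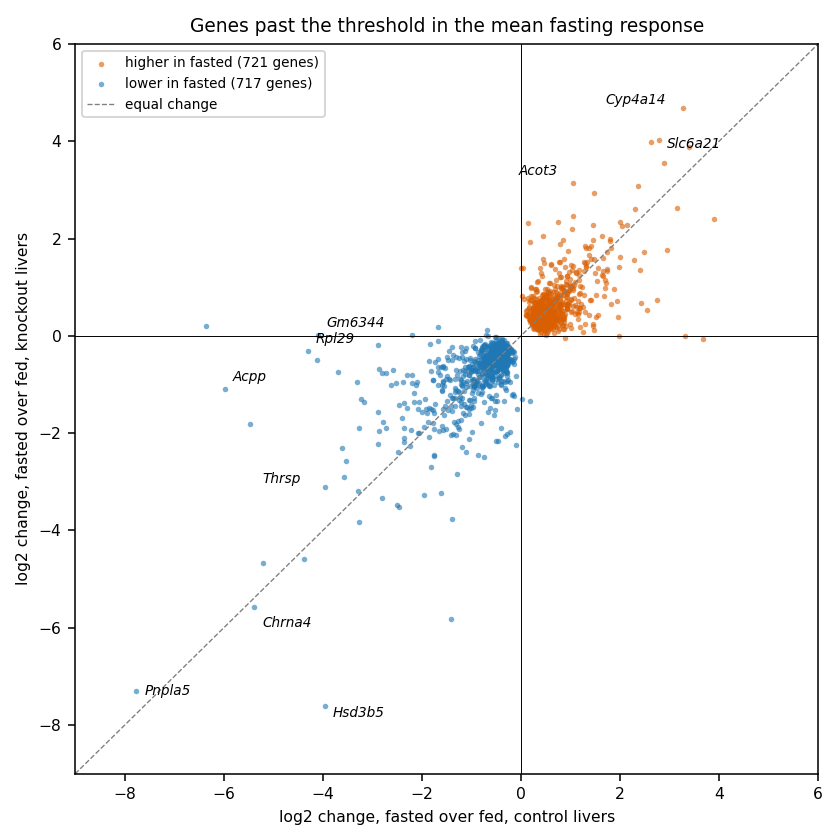
Log2 change, fasted over fed, in control (horizontal axis) and knockout livers (vertical axis) for the 721 genes that rose (orange) and the 717 that fell (blue), 1 point per gene. Most points lie in the quadrants of equal sign, and Rpl29, Gm6344 and Acpp lie far left of the dashed line of equal change.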

How the data were processed

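Poly(A) RNA of frozen liver from 12 mice was sequenced, 1 library per mouse, and the series' design text calls the 3 libraries of a group biological replicates. The authors deposited a table of raw read counts per gene and a table of TPM, both with mm10 gene coordinates and annotation. HISAT2 2.1.0 and DESeq2 1.24.0 are among the tools of the submitters' processing notes, as are featureCounts 1.6.3, Trimmomatic 0.38 and bcl2fastq 2.19, none with a stated role. Of the strand setting, the annotation release and the treatment of reads with several matches, the sources used here say nothing. The library kit is strand-specific, per the labels' protocols.

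Counts were fitted with edgeR 4.0.16 in R 4.3.3 (TMM factors, filterByExpr, robust quasi-likelihood F test), with a mean for each of 4 groups. The shared response is the mean of both genotypes' fasted minus fed contrasts, and p-values were adjusted by Benjamini and Hochberg over 15862 genes, of which those at 0.05 or below were called. The SE is the change divided by the square root of F. In data simulated from these libraries for the mean response (15862 genes), changes were placed only in genes above a minimum mean CPM. Of these, 43 of 67 changed 1.5-fold, 61 of 67 changed 2-fold and 66 of 66 changed 4-fold were recovered, with 12 unchanged genes called. The recovered shares thus do not cover genes below that level. Depth was 17520058 to 22414976 counts per library, and no 2 libraries held the same count for more than 5.06% of the genes detected.

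The members and the 44 gene lists were chosen with earlier results of these data known. Named genes are, by rule, the 10 largest increases and decreases among called genes with at least 1 CPM, no overlap and no provisional symbol, and the 5 smallest p in each direction. The rule adds the 5 smallest p of each list with called members that went against the list, the genes past the genotype difference and the 5 called genes with the smallest p for it, the 5 largest TPM gains and losses, and Foxo1, Foxo3 and Foxo4. Others named, mostly list members that did not pass, were chosen after their values were seen. RefSeq windows (GRCm38.p6) were matched by Entrez gene identifier, or else by symbol, for 11154 tested genes. Alternatives were other scalings and filters, DESeq2 1.42.0, limma 3.58.1 on counts (voom) and on log2(TPM + 1) and log2(TPM + 0.1), a replicate block, an additive model, a minimum of 1.5-fold, each library left out and, chosen after seeing the data, 3 libraries left out together. The labels do not say that replicate numbers pair animals. Results of some single genes are not reported here, though counts over lists include them.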

Additional observations from a re-analysis of the deposited data

Results flagged for a closer look

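In 4 of 61 sets of 6 fed or 6 fasted libraries examined, the highest library lay apart from the other 5 by Dixon's criterion (95% level), which chance gives in about 1 of 20 sets. Cyp4a31 reached 5.27 CPM in fed control replicate 1, with the next fed library at 2.32 CPM. Acot1 reached 186 CPM in fasted control replicate 2, with the next fasted library at 97.7 CPM. Glra3 reached 3.35 CPM in fed knockout replicate 1, with the next at 1.59 CPM. Cyp2c70 reached 164 CPM in fasted knockout replicate 3, with the next at 95 CPM. Each of these genes passed the threshold of the shared response in edgeR without that library.

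The fasting change of Rpl29 differed between genotypes, by 3.98 on the log2 scale (knockout minus control, edgeR's quasi-likelihood test, adjusted p = 0.000643). All 3 fasted control libraries were below the other 9. Acpp, Gm6344 and Gm10709 were lowest in the same 3 libraries, and since the mouse numbers of each group form a range of their own, the origin of these 3 animals cannot be told apart from a response to the fast.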

How the results depend on the processing

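No direction of the shared response reversed for any named gene past the threshold under the alternatives run. Against 1438 genes (721 higher, 717 lower), a required change of at least 1.5-fold left 109 (40 and 69, so 36.7% higher in place of 50.1%), and log2(TPM + 1) without a filter left 821 (403 and 418). DESeq2 called 1890. Leaving out each library gave 1025 to 1425 genes, 496 to 688 higher and 512 to 737 lower. Same-numbered libraries were not more alike than others. The 18 same-numbered pairs had correlations of -0.28 to 0.18, 36 other pairs -0.21 to 0.31, and 3 of 12 libraries correlated best with their own number. The labels do not say whether these numbers pair animals, and the correlations cannot settle it. With the replicate block 1086 genes passed, 1060 of them among the 1438.

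The control response alone (657 genes) gave 316 with unfiltered log2(TPM + 1), 1188 in DESeq2, 263 without the 3 libraries that stand apart, 439 with the replicate block and 272 to 648 without single libraries. The knockout response alone (393) gave 195, 794, 237, 232 and 88 to 573 under these settings. The genotype difference (1 gene) gave 5 without a filter on low counts, 3 on log2(TPM + 0.1), 60 in DESeq2, 0 without the 3 libraries that stand apart (where fewer libraries were fitted) and 1 to 3 without single libraries. Otherwise the cause of these shifts was not tested. Depth limits low genes most: the median SE was 0.34 below 1 TPM and 0.089 between 10 and 100 TPM. Rpl29, Acpp, Gm6344 and Gm10709 lost their mean call in the additive model, which has no term for a difference between genotypes.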

Other observations

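Of 264 solute carrier genes by symbol, some of them on the lists described above, 35 changed with fasting (18 rose, 17 fell, 13.3% against 9.07% of all tested genes, no test made). The families and the genes named here were chosen after their values were seen, and each named gene passed the threshold of edgeR's quasi-likelihood test unless said otherwise. The sodium bicarbonate transporter Slc4a4 changed by 1.16 (SE 0.12), the magnesium carrier gene Slc41a3 by 1.4 (SE 0.35) and the mitochondrial carrier Slc25a34 by 1.07 (SE 0.18). The choline transporter Slc44a1 changed by -0.61 (SE 0.084) and the bile acid transporter Slc10a2 by -1.19 (SE 0.24). Acyl-CoA synthetases, which activate fatty acids, split by isoform. Acsl1 rose (0.89, SE 0.16), while Acsl3 (-0.99, SE 0.23), Acsl4 (-0.91, SE 0.14) and Acsl5 (-0.80, SE 0.084) fell. In all, 3 of 14 synthetase genes rose and 6 fell, 1 of the latter an antisense gene of Acss2.

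Among 635 genes with the deposited term for DNA-binding transcription factors, 28 rose and 28 fell, and among 312 protein kinase genes 6 rose and 16 fell. These shares, 8.82% and 7.05%, are no higher than the 9.07% of all tested genes, so the members named are single genes past the threshold and not a result about either family. Factors that rose include Cux2, a factor of the female liver (1.54, SE 0.37), the orphan receptor gene Esrrg (0.85, SE 0.20) and the hepatocyte factor Foxa3 (0.66, SE 0.16). Their changes in control and knockout livers were 2.54 and 0.54 for Cux2, 0.41 and 1.29 for Esrrg, and 1.25 and 0.081 for Foxa3, differences that did not pass (adjusted p = 0.623, 0.69 and 0.547). Onecut1, also a hepatocyte factor, fell (-1.71, SE 0.39), as did Klf10 (-1.02, SE 0.22) and, by less, the hypoxia factor Hif1a (-0.31, SE 0.076). Of the kinases, the AMPK subunit Prkaa2 changed by -0.39 (SE 0.10). Genes with the deposited term peroxisome passed in 37.3% of 110 cases (30 rose, 11 fell), and those with the term mitochondrion in 13.1% of 1411 (120 rose, 65 fell).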
